A study of Mus musculus with 6 samples.

Results

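Nuclear pore genes encode the proteins of the nuclear pore complex, the channel through the nuclear envelope. They were examined here in RAW 264.7 cells, a mouse macrophage line, exposed to BPAP (bisphenol AP, a relative of the plastic monomer bisphenol A) or to the solvent DMSO. Members were the genes whose symbol is Nup followed by a digit or by l, together with Ndc1, Pom121, Rae1, Seh1l, Aaas, Tpr, Ahctf1 and Ranbp2. There were 30 such genes among the 34745 of the deposited table. RNA was sequenced from 3 BPAP libraries and 3 DMSO libraries of the same line, grown in DMEM with fetal bovine serum. The comparison asks which pore transcripts differ between the exposures. Neither dose nor exposure time is given in the sources used here. The labels do not say whether replicates are separate cultures, so the p-values speak only of the variation among the 6 libraries, which may be technical in origin.

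The pore complex is built from nested rings. The Y complex forms its outer rings on both faces of the envelope, and the inner ring lines the pore between them and is held in the membrane by a few transmembrane proteins. Proteins rich in phenylalanine-glycine (FG) repeats fill the channel and bind importins and exportins, which carry cargo under the control of the GTPase Ran. Filaments on the cytoplasmic side and a basket on the nuclear side help to load and release cargo and to export mRNA.

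Of the 30 genes, 28 had enough counts to be tested. Nup62cl had 0 counts in each of the 6 libraries, a limit of 0.271 CPM in the smallest library (CPM are counts scaled to the library total). Nup210l, a relative of Nup210, had 10, 7 and 6 counts in the BPAP libraries and 14, 11 and 9 counts in the DMSO libraries. Library totals were 12056332 to 12427563 counts in BPAP and 11084705 to 13806559 counts in DMSO. Mitochondrial transcripts took 6.53% to 7.55% of the counts in the BPAP libraries, against 10.8% in DMSO 1 and 7.02% and 7.35% in the other DMSO libraries. The 12 macrophage markers examined were all detected and summed to 6180 to 6620 CPM in BPAP and 5630 to 6130 CPM in DMSO. No marker of fibroblasts, epithelium, T cells, B cells or endothelium reached 1 CPM, and the highest sum of such a list in a library was 1.09 CPM, for fibroblasts in DMSO. As these are bulk samples, fewer cells of a kind and less RNA per cell cannot be told apart.

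After BPAP, 9 nuclear pore genes fell and 1 rose. Tpr, Nup210 and Ranbp2 fell by the largest amounts, 1.56-fold to 2.02-fold. Nup155, Ahctf1, Nup153, Nup160, Nup98 and Nup205 fell by less, 1.32-fold at most, and Nup37 rose 1.32-fold. Calls are from edgeR's quasi-likelihood test at an adjusted p of 0.05, Benjamini-Hochberg adjusted over the 11711 genes that were tested. The 10 calls were 35.7% of the 28 tested members, beside 31.7% of all genes tested. By direction, 32.1% of the members and 15.5% of all genes were lower, and 3.57% of the members and 16.2% of all genes were higher. The median log2 fold change was -0.20 for the members and 0.02 for all genes tested, and it was below 0 in 20 members. Every BPAP value lay below every DMSO value in 14 of the 28 members, beside 23.8% of all genes. BPAP values lay above without overlap in 2 members (7.14%), beside 25.2% of all genes. Groups did not overlap, in either direction, in 49.0% of all genes. Without DMSO 2 only 4 members passed, Tpr, Nup210, Ranbp2 and Nup153, and without DMSO 3 there were 6. The calls over all genes also fell in these fits, to 2511 without DMSO 2 and 2647 without DMSO 3, against 3715 with all libraries. Since fold changes followed gene length, values were also computed after each library's dependence on exon length and GC content had been removed. These are called length-corrected values in what follows. Exon length and GC content were removed together, so their parts in a change of value cannot be told apart. With this correction 6 members passed (21.4%, beside 22.6% of all genes), 5 of them lower (17.9%, beside 10.9%) and 1 higher (3.57%, beside 11.8%).

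**Figure D1:**
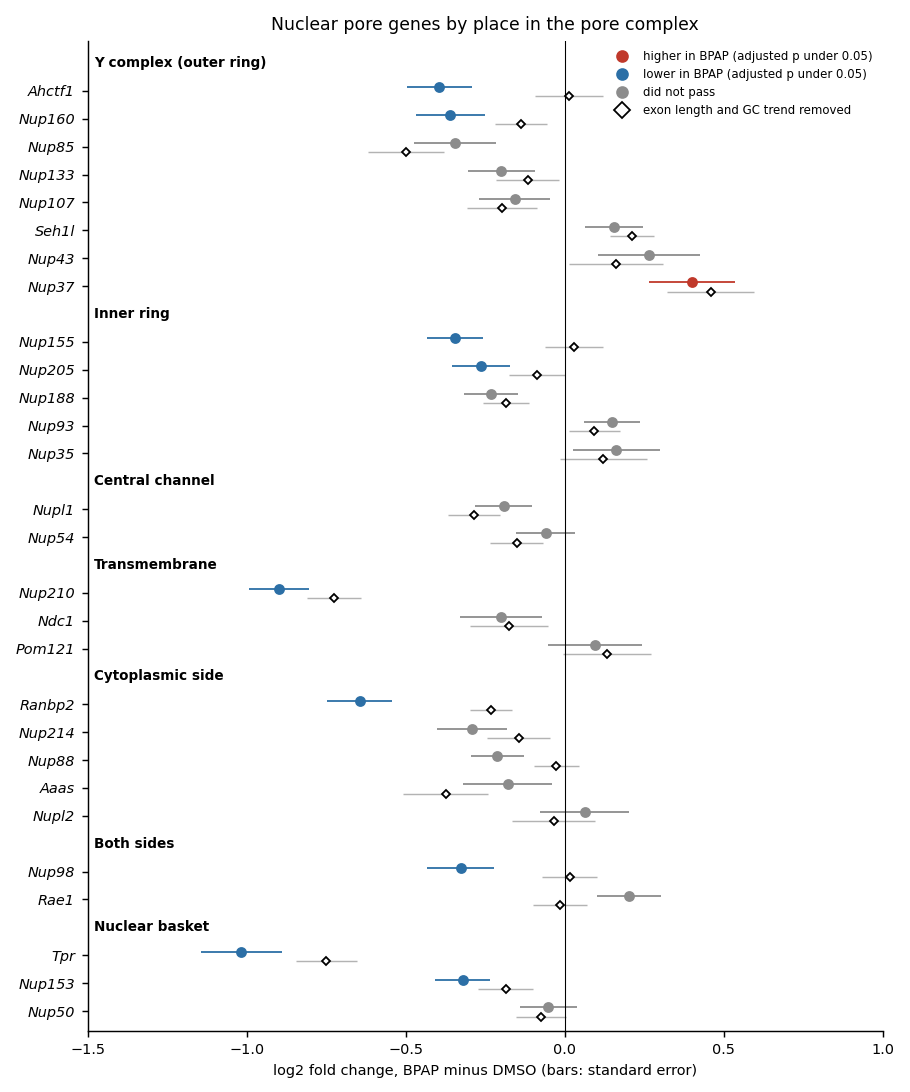
Log2 fold change (BPAP minus DMSO, horizontal axis) of the 28 tested nuclear pore genes, grouped by their place in the complex. Filled points are the edgeR estimates with their standard errors, blue for the 9 genes lower in BPAP and red for Nup37. Open diamonds are the length-corrected estimates, where Tpr and Nup210 remain at -0.75 and -0.73 and Ahctf1, Nup155 and Nup98 lie near 0.

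The nuclear basket held the largest fall. Tpr encodes the long coiled-coil protein that forms the basket filaments, and lies on chromosome 1 at 150392838 to 150449935 (GRCm38). It had 243, 172 and 225 CPM in the BPAP libraries, against 475, 404 and 415 CPM in the DMSO libraries. Each BPAP value was well below the lowest DMSO value. The fall was 2.02-fold (log2 fold change -1.02, SE 0.13, adjusted p = 0.000803), and the length-corrected value was -0.75 (adjusted p = 0.00155). Tpr shares 176 exon bases with Odr4 on the opposite strand, a gene with a mean of 855 counts against 4004 for Tpr.

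Nup153, whose product anchors the basket to the pore, had 125, 129 and 116 CPM in BPAP libraries and 165, 148 and 150 CPM in DMSO libraries. The groups did not overlap, and the fall was 1.25-fold (log2 fold change -0.32, SE 0.09, adjusted p = 0.0193). The call was lost without BPAP 1 (adjusted p = 0.0506), without BPAP 3 (0.065) and after length correction (log2 fold change -0.19, adjusted p = 0.148). Nup50, whose product binds importin alpha at the basket, differed by -0.05 on the log2 scale (SE 0.09, adjusted p = 0.689) with overlapping groups. The basket genes ranged from -1.02 to -0.05 on the log2 scale.

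Of 3 tested transmembrane members, Nup210 passed. It encodes gp210, a membrane glycoprotein with a large part in the lumen of the nuclear envelope, known in mouse for a role in muscle differentiation, and lies on chromosome 6 at 91013068 to 91116829. It had 35.9, 37.4 and 32.9 CPM in BPAP, against 68.7, 64.9 and 64.4 CPM in DMSO. The libraries of each group lay close together and the groups were far apart. The fall was 1.87-fold (log2 fold change -0.90, SE 0.10, adjusted p = 0.000522, the smallest among the members), and -0.73 after length correction (adjusted p = 0.00133). The other 2 transmembrane members did not pass. Ndc1, needed to insert new pores into the envelope, differed by -0.20 on the log2 scale (SE 0.13, adjusted p = 0.261), with 46.9 CPM in DMSO 1 above 36.2 and 36.8 CPM in the other DMSO libraries. Pom121, also an early protein of pore assembly, had 68.0, 83.7 and 67.8 CPM in BPAP and 85.0, 60.7 and 60.1 CPM in DMSO. Its groups overlapped, with 1 high library in each, and its log2 fold change was 0.09 (SE 0.15, adjusted p = 0.654). Pom121 shares 665 exon bases with Nsun5 on the opposite strand, so its counts are uncertain.

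On the cytoplasmic side, Ranbp2 fell. It encodes the giant protein of the cytoplasmic filaments, a SUMO ligase that binds Ran and RanGAP1, and lies on chromosome 10 at 58446852 to 58494155. It had 192, 161 and 203 CPM in BPAP libraries and 298, 271 and 299 CPM in DMSO libraries. The highest BPAP library was below the lowest DMSO library. The fall was 1.56-fold (log2 fold change -0.64, SE 0.10, adjusted p = 0.00188). The length-corrected value was -0.23 (adjusted p = 0.0333), less than that of Tpr or Nup210. With the trend of the length implied by the deposited FPKM values removed instead, it was -0.53 (adjusted p = 0.00517).

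Nup214 and Nup88, which form a platform for mRNA export, did not pass. Nup214 had 69.9, 79.6 and 65.8 CPM in BPAP and 97.5, 86.6 and 79.6 CPM in DMSO, so that BPAP 2 lay just above DMSO 3. Its log2 fold change was -0.29 (SE 0.11, adjusted p = 0.0643), and it passed without BPAP 2 (adjusted p = 0.0236). Nup88 differed by -0.21 on the log2 scale (SE 0.08, adjusted p = 0.0732) with groups that did not overlap. Aaas, which encodes ALADIN, mutated in a human syndrome of achalasia and adrenal insufficiency, stood at -0.18 (SE 0.14, adjusted p = 0.35). Nupl2, whose product works with Gle1 in mRNA export, stood at 0.06 (SE 0.14, adjusted p = 0.762).

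The promoters of the 3 genes that fell most and of the gene that rose are shown for comparison of their sequence. Each window holds 250 bases before and 50 bases after the annotated start, on the strand of the gene, from RefSeq on GRCm38.p6. Capitals mark matches, on either strand, to CCAAT (the CCAAT box), GGGCGG (the GC box), CCGGAAG (an ETS core), the palindromic NRF1 consensus and TTTGGCGC, TTTCCCGC and TTTCGCGC (E2F). The windows are chr1:150392588-150392887 (plus strand) for Tpr, chr6:91116777-91117076 (minus strand) for Nup210, chr10:58446602-58446901 (plus strand) for Ranbp2 and chr10:88146742-88147041 (plus strand) for Nup37.

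Tpr: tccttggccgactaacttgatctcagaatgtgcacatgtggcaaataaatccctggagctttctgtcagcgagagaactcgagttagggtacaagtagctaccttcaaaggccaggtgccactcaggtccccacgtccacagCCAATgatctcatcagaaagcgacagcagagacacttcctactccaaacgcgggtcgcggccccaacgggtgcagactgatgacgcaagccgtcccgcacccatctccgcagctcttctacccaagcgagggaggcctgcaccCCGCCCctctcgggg
Nup210: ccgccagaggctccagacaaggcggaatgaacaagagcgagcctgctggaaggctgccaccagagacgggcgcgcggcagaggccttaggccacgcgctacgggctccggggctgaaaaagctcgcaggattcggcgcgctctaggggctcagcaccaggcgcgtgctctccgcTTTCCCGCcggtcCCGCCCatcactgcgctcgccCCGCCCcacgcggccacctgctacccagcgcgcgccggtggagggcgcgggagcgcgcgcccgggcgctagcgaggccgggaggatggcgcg
Ranbp2: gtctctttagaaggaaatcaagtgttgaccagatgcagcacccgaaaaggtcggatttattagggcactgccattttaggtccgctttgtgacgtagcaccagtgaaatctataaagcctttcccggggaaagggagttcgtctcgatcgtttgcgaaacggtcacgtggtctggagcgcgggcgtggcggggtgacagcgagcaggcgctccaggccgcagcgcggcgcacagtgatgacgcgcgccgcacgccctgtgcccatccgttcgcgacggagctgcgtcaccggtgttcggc
Nup37: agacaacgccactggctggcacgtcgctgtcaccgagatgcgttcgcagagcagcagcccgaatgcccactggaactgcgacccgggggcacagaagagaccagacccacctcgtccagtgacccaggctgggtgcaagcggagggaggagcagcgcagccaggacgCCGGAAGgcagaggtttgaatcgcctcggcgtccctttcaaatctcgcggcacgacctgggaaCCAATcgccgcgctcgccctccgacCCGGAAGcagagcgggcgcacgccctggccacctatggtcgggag

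The Tpr window held 1 CCAAT box and 1 GC box, and the Nup210 window held 2 GC boxes and 1 E2F match. The Ranbp2 window held none of these letters, and the Nup37 window held 2 ETS cores and 1 CCAAT box. GC content was 58.0% for Tpr, 73.7% for Nup210, 60.0% for Ranbp2 and 67.0% for Nup37. The table gave 28 windows for 25 of the 30 members. A GC box was in 60.7% of these windows, 62.6% of the windows of tested genes and 35.7% of all 32851 windows. An ETS core was in 7 member windows, beside 18.6% of the windows of tested genes and 8.86% of all, and a CCAAT box was in 42.9%, 38.2% and 37.4% of those same sets. The NRF1 consensus was in 2 member windows, of Nup107 and Nup50 (7.14%, beside 2.23% of the windows of tested genes and 0.971% of all windows). The TTTCCCGC letters were in 1, of Nup210 (3.57%, beside 2.09% of the windows of tested genes and 1.07% of all). TTTGGCGC and TTTCGCGC were in 0 member windows, beside 1.01% and 0.664% of the windows of tested genes and 0.514% and 0.323% of all. These are matches of letters only.

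In the Y complex, members moved in both directions. Of 8 tested, Ahctf1 and Nup160 fell, Nup37 rose and 5 did not pass. Ahctf1 encodes ELYS, which brings the Y complex to chromatin when the envelope is rebuilt after mitosis. It had 142, 128 and 146 CPM in BPAP libraries, against 163, 204 and 179 CPM in DMSO libraries. The groups did not overlap, though DMSO 1 was near the highest BPAP library. The fall was 1.32-fold (log2 fold change -0.39, SE 0.10, adjusted p = 0.0159). The call was lost without DMSO 2 (adjusted p = 0.0747), and the length-corrected value was 0.01 (adjusted p = 0.942).

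Nup160, a core scaffold protein of the Y complex, had 67.4, 52.0 and 64.9 CPM in BPAP and 79.8, 76.7 and 80.1 CPM in DMSO. BPAP 2 was the lowest library and the DMSO libraries lay close together. The fall was 1.28-fold (log2 fold change -0.36, SE 0.11, adjusted p = 0.0299), and after length correction it was not called (log2 fold change -0.14, adjusted p = 0.255). The call was also lost without any 1 of the DMSO libraries (adjusted p = 0.062 to 0.0846), where the log2 fold change stayed at -0.38 to -0.35.

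Nup37, a small WD-repeat protein of the Y complex that binds Nup160, was the member that rose. It lies on chromosome 10 at 88146992 to 88178388. It had 20.7, 26.1 and 28.2 CPM in BPAP, against 18.4, 17.99 and 20.4 CPM in DMSO. BPAP 1 exceeded DMSO 3 by little, so the groups only just separated. The rise was 1.32-fold (log2 fold change 0.40, SE 0.14, adjusted p = 0.0457). With DESeq2 (adjusted p = 0.0585), limma-voom (0.0613) and limma-trend on FPKM (0.061) it did not pass, and it passed in 1 of the 6 fits without a library, that without BPAP 1 (adjusted p = 0.0196, and 0.0684 to 0.151 in the others). The length-corrected value was 0.46 (adjusted p = 0.0392). It was 0.14 (adjusted p = 0.445) when the length implied by the deposited FPKM values was used, which is 1364 bases for this gene against 3328 bases of merged exons.

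The remaining Y complex members did not pass. Nup85, a scaffold protein, had 13.3, 12.7 and 13.7 CPM in BPAP and 15.0, 18.5 and 16.9 CPM in DMSO. The groups did not overlap, and the log2 fold change was -0.35 (SE 0.13, adjusted p = 0.0629). After length correction it stood at -0.50 (adjusted p = 0.0174), and it passed without DMSO 1 (0.0446). With the trend of the length implied by the FPKM values removed instead, Nup85 did not pass (-0.38, adjusted p = 0.0545). Nup133 and Nup107, both scaffold proteins, had log2 fold changes of -0.20 and -0.16 (adjusted p = 0.169 and 0.298). Nup43 and Seh1l, which are beta-propeller proteins, had log2 fold changes of 0.27 and 0.15 (adjusted p = 0.232 and 0.221). Over all 8 genes, values on the log2 scale ran from -0.39 for Ahctf1 to 0.40 for Nup37.

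Of 5 tested inner ring genes, Nup155 and Nup205 fell. Nup155, a scaffold protein that touches the membrane, had 47.9, 46.7 and 46.9 CPM in BPAP libraries, against 62.2, 59.2 and 58.2 CPM in DMSO libraries. The BPAP libraries lay within about 1 CPM of each other. The fall was 1.27-fold (log2 fold change -0.34, SE 0.09, adjusted p = 0.0149). The call was lost without DMSO 2 (adjusted p = 0.0503), and the length-corrected value was 0.03 (adjusted p = 0.851). With the trend of the length implied by the FPKM values removed instead, the value was -0.32 (adjusted p = 0.0238).

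Nup205, a large scaffold protein related to Nup188, had 162, 170 and 177 CPM in BPAP and 183, 215 and 212 CPM in DMSO. BPAP 3 and DMSO 1 were near each other, without overlap. The fall was small (log2 fold change -0.26, SE 0.09, adjusted p = 0.0494). This call was the nearest to the threshold. It was lost with upper quartile scaling (adjusted p = 0.0638), no filter on low counts (0.0508), limma-voom (0.0531) and limma-trend on FPKM (0.0563), after length correction (0.503), and in each fit without 1 library but that without DMSO 1 (0.0604 to 0.173). Nup188 had 91.1, 101 and 97.5 CPM in BPAP and 114, 116 and 110.0 CPM in DMSO. Its groups did not overlap, and at -0.23 on the log2 scale (SE 0.08, adjusted p = 0.0595) it did not pass. It passed with limma-trend on FPKM (adjusted p = 0.0422) and without BPAP 2 (0.0367). Nup93, which links the inner ring to the channel proteins, stood at 0.15 (SE 0.09, adjusted p = 0.222), with every BPAP library above every DMSO library. Nup35, which binds the membrane, stood at 0.16 (SE 0.14, adjusted p = 0.384). Nup35 has a near-identical copy, Gm4353 on chromosome 7 (99.6% identity over 1547 bases), with a mean of 115 counts against 166 for Nup35, so reads could be split between them. Gm4353 differed by 0.36 on the log2 scale (adjusted p = 0.0769).

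The remaining members work in the channel or on both faces. The gene Nup98 encodes a precursor that is cut into Nup98, an FG protein found on both sides of the pore, and Nup96, of the Y complex. It had 61.4, 59.3 and 71.3 CPM in BPAP, against 87.6, 77.1 and 76.4 CPM in DMSO. The groups did not overlap, and the fall was 1.26-fold (log2 fold change -0.33, SE 0.10, adjusted p = 0.0358). The call was lost in 5 of the 6 fits without 1 library (adjusted p = 0.0612 to 0.105) and kept without BPAP 3 (0.0238). Its value also depended on the length used. The log2 fold change was 0.01 (adjusted p = 0.921) with the trend of merged exon length, 12602 bases for this gene, and GC content removed, and -0.40 (adjusted p = 0.0206) with the trend of the FPKM length, 4051 bases. Rae1, the partner of Nup98 in mRNA export, had 78.8, 88.3 and 71.4 CPM in BPAP and 67.2, 68.2 and 71.8 CPM in DMSO, a difference of 0.20 on the log2 scale (SE 0.10, adjusted p = 0.146). No gene under the symbol Nup62, also of the central channel, was in the deposited table. Of the FG proteins of the central channel, Nupl1 and Nup54 were tested and did not pass. Their log2 fold changes were -0.19 (SE 0.09, adjusted p = 0.124) and -0.06 (SE 0.09, adjusted p = 0.651). At an unadjusted p of 0.05, and with DESeq2, limma-voom or limma-trend, 0 of these 2 passed either. After length correction, Nupl1 was lower at -0.28 (adjusted p = 0.0351). It shares 1756 exon bases with Gm49336 on the same strand, and Nup54 has a pseudogene copy, Gm15790, so the counts of both are uncertain.

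**Figure D2:**
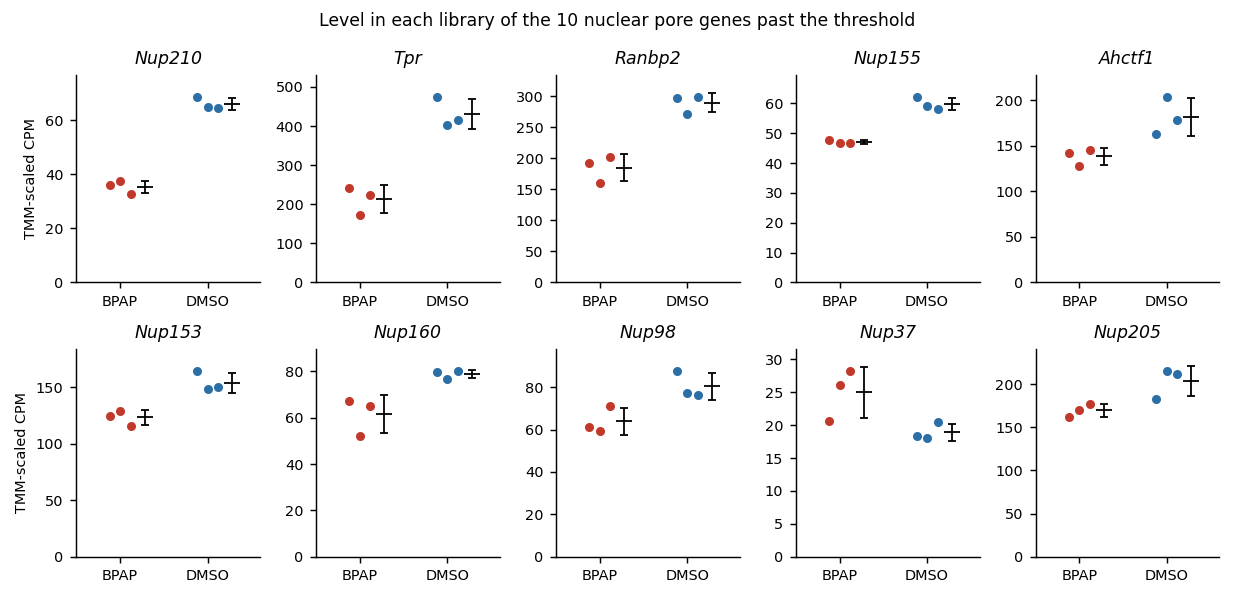
TMM-scaled CPM (vertical axes from 0) in each library for the 10 members past the threshold, in order of p. Red points are the 3 BPAP libraries and blue points the 3 DMSO libraries, with the mean and SD beside them. The groups do not overlap in any of the 10 genes, with the widest separation in Nup210 and Tpr and the narrowest in Nup37 and Nup205.

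Summed over the 28 tested members, the level was 2174, 2108 and 2197 CPM in BPAP libraries and 2754, 2658 and 2662 CPM in DMSO libraries. The means were 2160 ± 46.2 CPM in BPAP and 2691 ± 54.1 CPM in DMSO (SD, n = 3 each). Tpr and Ranbp2 made up much of the difference. Nup210, with means of 35.4 CPM in BPAP and 66.0 CPM in DMSO, made up a small part. Tpr, Nup210 and Ranbp2, the members with the largest falls in fold, were set apart after their values were seen. The other 25 members summed to 1726 ± 19.4 CPM in BPAP and 1905 ± 18.4 CPM in DMSO.

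Per kb of merged exons, the members spanned from 3.22 ± 0.23 (Nupl2) to 44.6 ± 4.05 CPM per kb (Seh1l) in BPAP and from 3.09 ± 0.34 (Nupl2) to 41.1 ± 3.63 CPM per kb (Tpr) in DMSO (SD, n = 3 each). The top of that order changed. Tpr stood at 20.3 ± 3.5 CPM per kb in BPAP, below Seh1l, Nup93 and Rae1, and within the spread of Nupl1 at 20.8 ± 1.29 CPM per kb. In DMSO, Tpr stood at 41.1 ± 3.63 beside Seh1l at 40.1 ± 1.49 CPM per kb, a difference within their spread. Nup210 was the next to lowest in BPAP, at 3.38 ± 0.22 CPM per kb, and in DMSO it stood at 6.30 ± 0.22 CPM per kb, close to Nup98 at 6.38 ± 0.50.

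**Figure D3:**
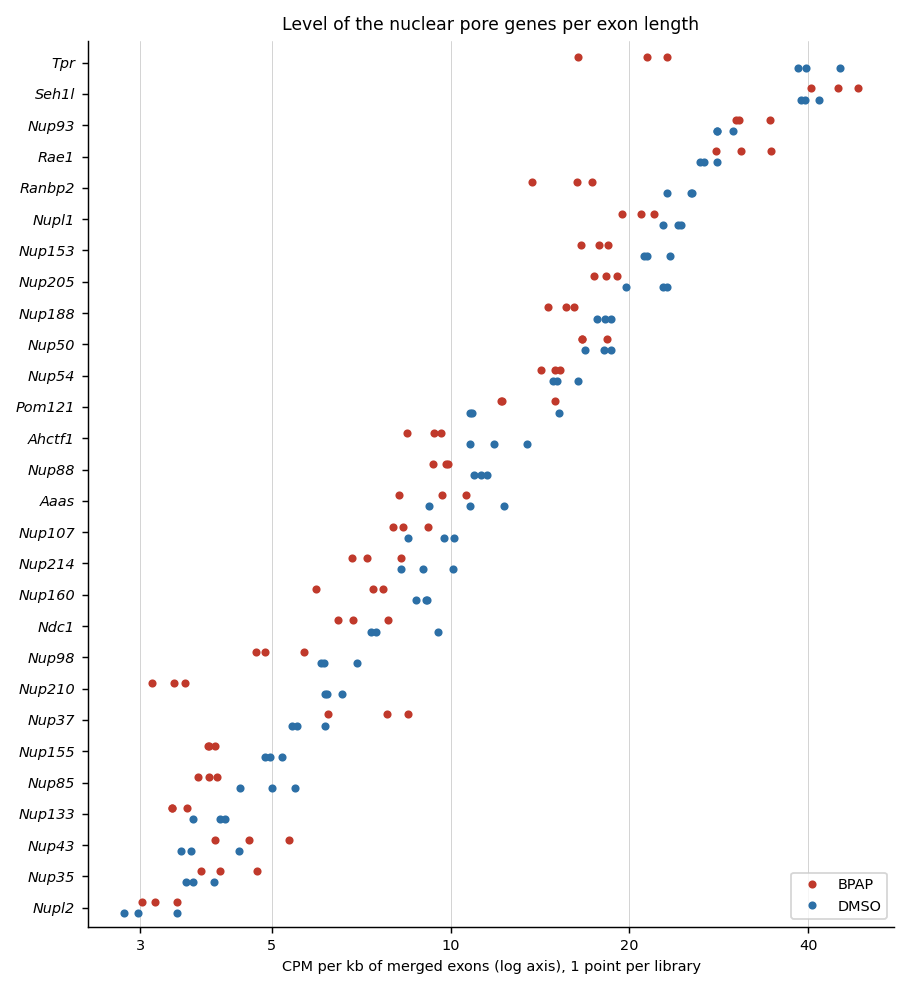
Level of the 28 tested members in CPM per kb of merged exons (log axis), 1 point per library, with BPAP in red above DMSO in blue, in order of the DMSO mean. Tpr, Ranbp2 and Nup210 show the widest gaps between groups, and Seh1l is at the top of the BPAP order.

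The fold changes of the members followed gene length. Merged exons, in which each base is counted once, had a median of 5252 bases in the tested members and 4296 in all tested genes, and ran from 2554 bases in Rae1 to 15116 in Ahctf1. Across the 28 members, which are not independent replicates, the Spearman correlation of log2 fold change with exon length was -0.80, and across 11677 tested genes it was -0.40. The 9 genes that fell had at least 7017 bases, and 12 members were that long. Among the 16 members longer than the median gene, 9 were lower (56.2%), beside 1458 of the 5837 tested genes longer than that, with median log2 fold changes of -0.31 and -0.13. Among the 12 members at or below it, Nup37 was higher (8.33%), beside 24.5% of the 5840 genes of that kind, with median log2 fold changes of 0.10 and 0.17. In those 12 members edgeR called 0 lower, beside 6.03% of the genes of that kind, with 1 at an unadjusted p of 0.05 and 0 with DESeq2, limma-voom or limma-trend.

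After length correction, the correlation was -0.15 across the members and 0.06 across all genes. Of the 10 calls, 4 remained, which were Tpr, Nup210 and Ranbp2 as lower and Nup37 as higher, and Nup85 and Nupl1 were newly lower. The median was then -0.10 for the members and 0.01 for all genes. When the FPKM length was used in place of exon length and GC content, 6 members passed (21.4%, beside 24.2% of all genes). All 6 were lower, beside 1411 of the 11711 genes tested, and 0 were higher, beside 12.2% of all genes. In that fit 5 of the 10 calls remained, Tpr, Nup210, Ranbp2, Nup155 and Nup98, and Nupl1 was also lower. The median of the members was -0.12. Tpr, Nup210 and Ranbp2 were lower in all 16 alternatives run. What makes fold changes follow length in these libraries was not tested.

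**Figure D4:**
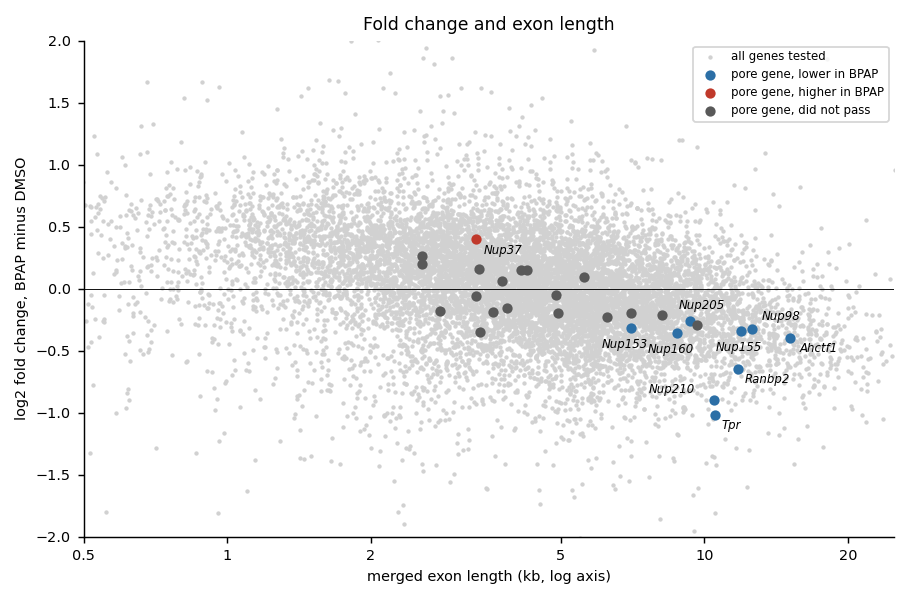
Log2 fold change (BPAP minus DMSO) against merged exon length in kb (log axis) for all tested genes in grey and the 28 nuclear pore genes as larger points. Members that fell are in blue, Nup37 is in red and members that did not pass are in dark grey, and 146 genes fall outside the axes. Tpr and Nup210 lie below most genes of their length, while Nup98, Nup155 and Ahctf1 lie within the cloud.

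The wider transport pathway was examined through 6 lists. Of their 72 tested genes, 16 were lower (22.2%, beside 15.5% of all genes) and 5 were higher (6.94%, beside 16.2%). Without DMSO 2 the lower genes numbered 9, and without DMSO 1 and DMSO 3 the higher genes numbered 2 and 3. After length correction 8 were lower (11.1%, beside 10.9% of all genes) and 7 higher (9.72%, beside 11.8%), shares near those of all genes. Of 17 importins, 6 fell and the median log2 fold change was -0.25, with a median exon length of 6729 bases. After length correction 2 importins were lower and 1 was higher, Ipo8 (0.32, adjusted p = 0.043), with a list median of -0.06. Kpnb1, which encodes importin beta, had 402, 387 and 438 CPM in BPAP and 521, 537 and 526 CPM in DMSO (log2 fold change -0.37, SE 0.08, adjusted p = 0.00849). The groups did not overlap, and the call held after length correction (log2 fold change -0.29, adjusted p = 0.0187). Kpna4, an importin alpha gene, Ipo7 and Tnpo3 fell by 1.34-fold, 1.35-fold and 1.39-fold. After length correction they stood at -0.12, 0.01 and -0.06, and none of the 3 passed (adjusted p = 0.275 to 0.915). With the FPKM length in its place, Ipo7 kept its call (log2 fold change -0.55, adjusted p = 0.00381).

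Of 7 exportins, Xpo1, the main exporter of proteins with a nuclear export signal, fell. It had 209.9, 192 and 258 CPM in BPAP and 278, 266 and 295 CPM in DMSO, a fall of 1.27-fold (adjusted p = 0.0382). BPAP 3 was close to DMSO 2, and the call was lost in 5 of the 6 fits without 1 library (adjusted p = 0.0665 to 0.118), kept without BPAP 3 (0.00992), and lost after length correction (0.568). With that correction 0 exportins were lower and 2 were higher, Xpot, the tRNA exporter (0.29 on the log2 scale, adjusted p = 0.0381), and Xpo7 (0.25, adjusted p = 0.0411), which stood at 0.22 and -0.19 without it and did not pass. The list median was 0.19 with the correction and -0.14 without it. With the FPKM length, neither Xpot nor Xpo7 passed (adjusted p = 0.0843 and 0.761). Of 8 Ran cycle genes, edgeR called 0, with 2 at an unadjusted p of 0.05, 1 in each direction, and 0 by DESeq2, limma-voom or limma-trend. Rcc1, the exchange factor that charges Ran with GTP, stood at 0.27 on the log2 scale (adjusted p = 0.0902), and Rangap1, its GTPase activator, at -0.25 (adjusted p = 0.104). Without DMSO 1, Rangap1 passed as lower (-0.37, adjusted p = 0.0197).

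Of 17 mRNA export genes, 3 fell (beside 15.5% of all genes) and 2 rose (beside 16.2%), with a median log2 fold change of -0.05. After length correction 3 were lower and 1 was higher, with a list median of 0.03. Thoc2, the scaffold of the THO complex, had 103, 67.7 and 93.9 CPM in BPAP, against 181, 143 and 158 CPM in DMSO. BPAP 2 was the lowest library and the groups were well separated. The fall was 1.82-fold (log2 fold change -0.87, SE 0.15, adjusted p = 0.0037), and -0.27 after length correction (adjusted p = 0.044). Nxt2, a cofactor of the mRNA exporter, fell 1.35-fold (adjusted p = 0.0118) and Ddx39b, an RNA helicase of export, 1.27-fold (adjusted p = 0.0153). Both kept their calls after length correction (log2 fold changes -0.25 and -0.43, adjusted p = 0.0344 and 0.0046). Thoc6, also of the THO complex, rose 1.39-fold (adjusted p = 0.0243). The call of Ddx39b was lost without BPAP 1 (adjusted p = 0.0601) or DMSO 2 (0.0553). That of Thoc6 was lost without BPAP 2, DMSO 1 or DMSO 2 (up to 0.095) and after length correction (0.191). The gene higher after length correction was Thoc7 (0.47, adjusted p = 0.00998), which stood at 0.21 without it (adjusted p = 0.16). With the FPKM length, Thoc7 did not pass (-0.11, adjusted p = 0.497).

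Of 17 genes of the lamina and envelope, 6 fell and 2 rose, with a median log2 fold change of -0.22. After length correction 3 were lower and 2 higher, with a list median of -0.13. Syne1 and Syne2, which encode very large nesprins that tie the nucleus to the cytoskeleton, fell 1.52-fold and 2.03-fold (adjusted p = 0.00243 and 0.00472). Syne2 was at a low level, 4.33 ± 0.26 CPM in BPAP and 8.77 ± 1.95 CPM in DMSO (SD, n = 3 each). Their merged exons hold 40491 and 26726 bases, and after length correction neither passed (log2 fold changes 0.00 and -0.56, adjusted p = 0.983 and 0.0823). With the FPKM length in its place, Syne1 kept its call (-0.43, adjusted p = 0.0124) and Syne2 did not (-0.62, adjusted p = 0.0582). Sun1, their partner in the inner membrane, fell 1.32-fold (adjusted p = 0.0097), a call lost without DMSO 2 (adjusted p = 0.052). Tor1a, an ATPase of the envelope lumen, rose 1.49-fold (adjusted p = 0.00324). Sun1 and Tor1a kept their direction and calls after length correction (adjusted p = 0.0241 and 0.04). With the FPKM length in its place, Tor1a kept its call (adjusted p = 0.00733) and Sun1 did not (-0.21, adjusted p = 0.123). Among 6 other genes of the pore complex, Sec13, a Y complex protein that is also part of COPII coats, rose. It had 102, 118 and 112 CPM in BPAP and 74.5, 87.2 and 86.1 CPM in DMSO, a rise of 1.34-fold (log2 fold change 0.42, SE 0.10, adjusted p = 0.0108). The groups did not overlap, and the adjusted p was 0.0541 after length correction. With the FPKM length in its place, Sec13 kept its call (adjusted p = 0.0307). Tmem33, of the same list, stood at 0.22 on the log2 scale and did not pass (adjusted p = 0.0902). After length correction it was the 1 gene of the list called higher (0.59, adjusted p = 0.00355), and 0 were lower. With the FPKM length, Tmem33 was also higher (0.47, adjusted p = 0.00776), and Senp2 and Cetn3 were lower (adjusted p = 0.0473 and 0.0151).

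**Figure D5:**
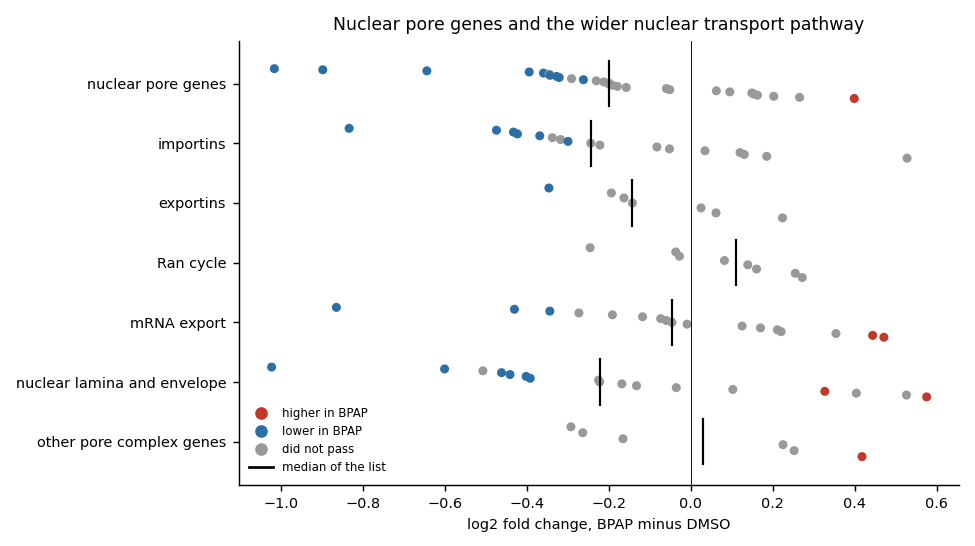
Log2 fold change (BPAP minus DMSO, horizontal axis) of the nuclear pore genes and of 6 lists of the wider pathway, 1 point per tested gene. Blue points were lower and red points higher in BPAP, grey points did not pass, and black lines are list medians, from -0.25 for importins to 0.11 for the Ran cycle.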

How the data were processed

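RNA was sequenced from RAW 264.7 cells, 3 libraries treated with BPAP and 3 with DMSO, grouped by the treatment label. Per the labels' protocols, RNA was extracted with TRIzol and the library kit was VAHTS Universal V6. The authors deposited a raw count and an FPKM value per gene and library. HISAT2 2.0.4, StringTie 1.3.3b, edgeR and build GRCm38 are named, with no role or order, per the submitters' processing notes. Strand setting, annotation release and the treatment of multi-mapping reads were not stated there.

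Deposited counts were tested with edgeR 4.0.16 (R 4.3.3; default expression filter with a minimum count of 10, TMM factors, robust quasi-likelihood test, treatment as the only term) over all genes, 2-sided. CPM are TMM-scaled, log2 fold changes are BPAP minus DMSO, and standard errors were derived from the F statistics. Exon length and GC content came from GENCODE M21, and the length correction entered each library's lowess curve (span 0.3) with log exon length and then GC content as an offset. The FPKM length is the length that the deposited counts and FPKM values imply. It exceeded the merged exons in some members, such as Nup88 (16241 against 8144 bases). In others it was shorter, such as Nup98 (4051 against 12602 bases). It therefore need not be the length of a transcript. Other alternatives were DESeq2 1.42.0, limma 3.58.1 (voom, and trend on log2(FPKM + 1)), other scalings, no filter, a replicate block and leaving out each library. On simulated counts of 11624 genes, edgeR recovered 62.7% of 67 genes changed 1.5-fold and all 67 changed 2-fold. These counts had no length trend, the same dispersion for every gene and far fewer changed genes than were called in the data. Their shares are therefore not the power for the members. Counts with a length trend were also simulated, and their shares are not given here. The limit for a count of 0 uses 3 counts and covers counting error only. No pair of libraries in a group agreed within counting noise (chi-square per degree of freedom at least 6.64).

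The members and gene lists were chosen with earlier results of these data known. Named are all members past the threshold, the 3 next by p, and up to 4 genes per list (2 where none passed). Ipo8, Xpot, Xpo7, Thoc7, Tmem33, Senp2 and Cetn3 are outside this naming rule. They were picked after their values with a length trend removed were seen. Other members are given by their fold change, with library values added for Ndc1, Pom121 and Rae1. A planned protein sequence comparison was not run, and the promoters shown were chosen after values were seen.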

Additional observations from a re-analysis of the deposited data

How the results depend on the processing

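Over 16 alternatives, the 10 members past the threshold gave 160 values: 114 kept direction and side of the threshold, 40 lost the call and 6 changed sign. Tpr, Nup210 and Ranbp2 passed in all of them. The number past the threshold was 6 after length correction and 6 with the FPKM length trend removed, and 4 to 9 without 1 library, the 4 being without DMSO 2. Lower genes numbered 5 after length correction and 4 to 9 without 1 library. Higher genes numbered 0 with DESeq2, limma-voom, limma-trend on FPKM and the FPKM length trend removed, and 0 to 1 without 1 library. The members' median log2 fold change was -0.102 after length correction, -0.117 with the FPKM length trend removed, -0.10 after length correction with the replicate block, and -0.242 to -0.191 without 1 library.

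After length correction, signs turned for Ahctf1 (0.013), Nup155 (0.029), Nup98 (0.015), Nupl2 (-0.035) and Rae1 (-0.016), and with the replicate block added these were 0.025, 0.026, 0.014, -0.032 and -0.018. Nup88 was 0.033 with the FPKM length trend removed, and over the fits without 1 library Nupl2 ran between -0.001 (without DMSO 3) and 0.154, and Pom121 between -0.011 (without BPAP 2) and 0.258. The cause was not tested.

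In the wider pathway, 3 genes were higher with the FPKM length trend removed, 9 with the replicate block and 9 with block and length correction together, and 2 to 5 without 1 library. Lower genes there numbered 8 after length correction, 9 with the block added, and 9 to 17 without 1 library. Over all genes, 1244 to 1654 were higher without 1 library, the fewest without DMSO 1.

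The replicate numbers were not taken to pair the libraries: deviations of same-numbered BPAP and DMSO libraries correlated at 0.101, 0.054 and 0.01, although 5 of 6 libraries correlated best with their own number. The block gave 12 members past the threshold, adding Nup188 (adjusted p = 0.0488) and Nup214 (0.0392), and 4236 genes in all. In counts simulated at this depth with 3 libraries a group, 62.7% of 1.5-fold changes were called. The simulated setting differed from the data, so this share is not the power for the members. All member calls but Tpr, Nup210 and Ranbp2 were smaller than 1.5-fold.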

Other observations

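In the same lists, Kpna2 and the lamin genes fell outside the naming rule and were looked at after their values were seen. Kpna2, an importin alpha gene known for high levels in proliferating cells, had 3.01, 2.16 and 3.53 CPM in BPAP libraries and 5.51, 4.77 and 5.28 CPM in DMSO libraries. It was 1.78-fold lower (edgeR adjusted p = 0.0164), at a low level, and its log2 fold change was -0.96 after length correction (adjusted p = 0.0116). The B-type lamin genes Lmnb1 and Lmnb2 were 1.31-fold and 1.36-fold lower (adjusted p = 0.0159 and 0.0271). After length correction they stood at -0.57 and -0.49 (adjusted p = 0.00559 and 0.0199), larger than without the correction. Lmnb1 lost its call in 2 of the 6 fits without 1 library (adjusted p up to 0.0641) and Lmnb2 in 4 (up to 0.0984). Lmna, which encodes the A-type lamins, differed by 0.40 on the log2 scale (adjusted p = 0.0922), with 413, 461 and 445 CPM in BPAP libraries, against 268, 433 and 297 CPM in DMSO libraries. DMSO 2 alone among the DMSO libraries lay within the BPAP range. Without DMSO 2 the Lmna value was 0.64 (adjusted p = 0.00654), and without DMSO 1 it was 0.25 (adjusted p = 0.259).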
